A study of Mus musculus with 2 samples.

Results

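The mouse mitochondrial genome encodes 13 proteins, all of them subunits of the respiratory chain or of the ATP synthase. The genes described here are 10 of these 13: mt-Nd1, mt-Nd2, mt-Nd4 and mt-Nd5 of complex I, mt-Cytb of complex III, mt-Co1, mt-Co2 and mt-Co3 of complex IV, and mt-Atp6 and mt-Atp8 of complex V. They were chosen by name, by matching symbols among the 32285 features of the deposited tables, and all 10 were found. The other 3 (mt-Nd3, mt-Nd4l and mt-Nd6) are used for comparison. The genes were counted in every barcode with at least 300 detected genes, with and without the common limit of 5% on UMIs from genes whose symbol starts with mt-, and by T cell state and lineage.

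The series consists of 2 droplet single-cell libraries of splenic YFP+ regulatory T cells (Tregs) from 7-day-old C57BL/6J mice, 1 labelled WT and 1 labelled KO (Zfp335fl/flFoxp3-Cre). Zfp335 is a zinc finger transcription factor, and its floxed alleles are deleted in KO by a Cre recombinase expressed from the Foxp3 locus. Per the study's methods, both groups carry the Foxp3-driven YFP-Cre, so that WT mice differ in having no floxed Zfp335 alleles. By the same methods, cells were sorted as live CD4+YFP+ cells after lysis of red cells. How many mice were pooled per library is not stated, and Cre activity was tied to Foxp3, so cells that never expressed Foxp3 keep Zfp335. There is 1 library per genotype and therefore no replicate: no test between genotypes was possible, and every interval is a 95% interval that covers counting error only.

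The WT library held 64565962 UMIs (unique molecular identifiers, 1 per captured transcript) in 14521 barcodes, and the KO library 65476573 UMIs in 18131 barcodes. Median depth was 2179 UMIs in WT and 2137 in KO, and 70 barcode sequences occurred in both libraries. Zfp335 itself had 8.64 CPM (UMIs of a gene scaled to an equal library total) in WT and 0.993 in KO, a ratio of 0.115 (0.0874 to 0.149). In T-lineage clusters Foxp3 stood at 44.3 CPM in WT and 47.8 in KO, and Cd4 at 143.5 and 129.3, whereas in clusters of other lineages Foxp3 stood at 6.54 and 9.50. Markers of other lineages were present in T-lineage clusters. The 13 erythroid markers summed to 772 CPM in WT and 3193 in KO, with 11 of 13 higher in KO, and the 12 neutrophil markers to 393 and 761, with all 12 higher in KO. In the resting Treg-like cluster described below, the erythroid sum was 577 and 1092 CPM, with 7 of 13 higher in KO, and the neutrophil sum 358 and 246, with 1 of 12 higher. None of these markers was at 0 in T-lineage clusters of either library, and their part in the results was not tested, apart from a denominator without haemoglobin genes given among the alternatives.

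The mitochondrial genome is transcribed as long precursors from both strands, in which tRNA genes lie between most of the mRNAs. Processing enzymes cut at the tRNA ends and release the mRNAs, which then receive short poly(A) tails. Each respiratory complex except complex II combines mitochondrially encoded core subunits with a larger number of subunits encoded in the nucleus. Tregs are known for their reliance on oxidative phosphorylation.

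The positions of the genes set how they can be counted. In GRCm38 (GENCODE M21) mt-Atp8 lies at chrM:7766-7969 and mt-Atp6 at chrM:7927-8607, so that the end of mt-Atp8 is also the start of mt-Atp6. Both proteins are read from 1 mRNA. The whole mt-Atp8 gene, 204 bases of the plus strand, is shown with the 43 bases that it shares with mt-Atp6 in capitals.
mt-Atp8: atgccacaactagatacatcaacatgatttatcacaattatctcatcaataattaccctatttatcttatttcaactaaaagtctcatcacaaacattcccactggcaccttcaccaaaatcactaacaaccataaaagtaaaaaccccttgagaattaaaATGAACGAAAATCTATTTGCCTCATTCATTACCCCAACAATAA
The poly(A) tail of the shared mRNA follows mt-Atp6, so mt-Atp8 has no 3′ end of its own. The same holds for mt-Nd4l (chrM:9877-10173), which shares its last 7 bases with mt-Nd4 (chrM:10167-11544). How reads in such shared bases were assigned is not given in the sources used here, so the counts of mt-Atp8, mt-Atp6 and mt-Nd4 carry this uncertainty. mt-Nd5 overlaps mt-Nd6, and mt-Co1 the tRNA gene mt-Ts1, on the opposite strand.
Because the assay counts the 3′ part of transcripts, the last 30 bases of the annotated gene are also shown for 5 members and mt-Nd4l, all on the plus strand. The end of the annotated gene need not be the end of the mRNA. On this strand mt-Co1 is followed by mt-Td only after 69 bases, and mt-Nd5 by mt-Cytb after 579 bases. How this bears on the counts of mt-Co1 and mt-Nd5 was not tested. Capitals mark runs of at least 4 A in the members, and the bases shared with mt-Nd4 in mt-Nd4l.
mt-Nd1 (chrM:3678-3707): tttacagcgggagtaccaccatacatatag
mt-Nd4 (chrM:11515-11544): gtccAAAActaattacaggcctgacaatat
mt-Cytb (chrM:15259-15288): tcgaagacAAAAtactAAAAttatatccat
mt-Co1 (chrM:6843-6872): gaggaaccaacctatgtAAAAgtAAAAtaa
mt-Nd5 (chrM:13536-13565): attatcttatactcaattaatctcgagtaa
mt-Nd4l (chrM:10144-10173): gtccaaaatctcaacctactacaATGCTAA
mt-Nd4 and mt-Cytb stop on a base that is not a complete stop codon, since in mitochondria the poly(A) tail completes it, whereas mt-Co1 and mt-Nd5 end on taa. The annotated mt-Nd1 ends on tag, but its last 2 bases also belong to the tRNA gene mt-Ti that follows. mt-Nd1, mt-Nd4 and mt-Cytb gained share of the pool in KO, and mt-Co1 and mt-Nd5 lost share, as described below. Runs of A, at which the oligo(dT) primer can also start inside an mRNA, were found in both groups: the longest run had 6 bases in mt-Nd1 and 7 in mt-Nd4, mt-Nd5 and mt-Co1.

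The level of the 10 genes was lower in the KO library than in the WT library when all barcodes were summed. They supplied 3.94% of all UMIs in WT and 3.27% in KO, a ratio of 0.832 (0.830 to 0.833). The median barcode had 3.84% in WT, with quartiles of 2.24 and 9.98, and 2.65% in KO, with quartiles of 1.91 and 4.69. All 10 genes were lower in KO with intervals below 1, from mt-Nd1, nearly level at 0.974 (0.968 to 0.981), to mt-Atp8 at 0.552 (0.538 to 0.566). Intervals are narrow at these UMI counts, so small departures from 1 lie outside them. For scale, 4038 of 10608 genes tested in T-lineage clusters, over nuclear-encoded UMIs, had a ratio above 1, so most genes lay lower in KO. Barcodes over the 5% limit made up 44.5% of the WT and 24.1% of the KO library, a difference of -20.47 percentage points (-21.49 to -19.45). These barcodes held 48.9% of all WT UMIs of the 10 genes in 16.1% of the library's UMIs. With the limit applied, 8053 WT and 13767 KO barcodes were left, their shares were 2.40% and 2.32%, and the ratio was 0.966 (0.964 to 0.969). The limit cuts on nearly the same quantity as is measured, so the value under the limit is in part set by it. The values also sat close to the limit in many barcodes: 1337 WT and 1657 KO barcodes lay within 1 percentage point of it.

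Levels differed between members by more than they differed between genotypes. Scaled to gene length, mt-Atp6 was the most abundant member with 11060 CPM per kilobase in WT and 8939 in KO. It was followed by mt-Co3 (9381 and 7739), mt-Co2 (8043 and 6649), mt-Co1 (4408 and 3239), mt-Cytb (3770 and 3422), mt-Nd1 (2922 and 2847), mt-Nd2 (2124 and 1912) and mt-Nd4 (1403 and 1352). mt-Atp8 (1212 and 669) and mt-Nd5 (359 and 215) were lowest. The order was the same in both libraries except that mt-Cytb stood above mt-Co1 in KO. A 3′ assay counts about 1 tag per captured molecule whatever its length, and mt-Atp8 is not counted from a 3′ end of its own, so this scale is a convention rather than a number of molecules.

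By cluster, the share of the 10 genes varied far more than between the libraries. The barcodes of both libraries were clustered together on genes that left out all mt- genes and all markers, giving 15 clusters. Of these, 11 were called T-lineage, with a mean CPM of 11 T cell genes of at least 50% of the median over clusters. The genes were those of the T cell receptor and CD3, Lat, Cd4, Cd5 and Cd28. The rule also took in clusters 3, 7 and 9, led by haemoglobin or granule genes, and cluster 15 (41 WT and 10 KO barcodes), led by C1qc, C1qa and C1qb. Names with the ending -like were given from marker lists, and 8 clusters stayed unnamed. In the resting Treg-like cluster 1 (2855 WT and 5565 KO barcodes) the 10 genes supplied 3.10% of UMIs in WT and 2.84% in KO. In the effector Treg-like cluster 5 the shares were 2.68% and 2.86%. In the activated Treg-like cluster 8, which rests on 1 marker among its 10 leading genes, they were 2.504% and 2.32%, and in the cycling T-like cluster 6, also named from 1 such marker, 2.33% and 2.497%. All 4 named T cell states thus lay between 2.32% and 3.10% in both libraries, with quartiles over barcodes that overlapped.

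The highest levels were in clusters that could not be named. Cluster 2 had 14.2% in WT and 12.4% in KO, and 93.8% and 93.3% of its barcodes were over the 5% limit. It was shallow, with medians of 1188 and 1228 UMIs, and its leading genes included the long non-coding RNAs Tsix and Kcnq1ot1 and the Treg transcription factor Ikzf2. Its 11 T cell genes summed to 5998 and 7604 CPM and its 7 Treg identity genes to 2671 and 2740. Cluster 4 had 8.33% and 9.27%, with 82.5% and 82.4% over the limit, and its leading genes included Gm26917, Hexim1, the mitochondrial leucyl-tRNA synthetase Lars2 and the immediate early gene Jun. Malat1, a long RNA kept in the nucleus, took 3.37% (WT) and 4.14% (KO) of nuclear-encoded UMIs in cluster 2 and 5.27% and 5.23% in cluster 4, against 2.01% and 2.22% in all barcodes. Cluster 7 had 10.9% and 14.2%, while its median barcode had 2.06% in WT and 6.71% in KO, and it was led by haemoglobin genes, AY036118 and Gm42418.

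The lowest levels were in clusters 12 and 13, both of other lineages. In the haemoglobin-rich erythroid-like cluster 12 the 10 genes supplied 1.07% of UMIs in WT (86 barcodes) and 0.989% in KO (194 barcodes), with haemoglobin taking 65.8% and 65.1% of nuclear-encoded UMIs. The neutrophil-like cluster 13 had 1.20% and 1.21%. The early erythroid-like cluster 10, marked by Klf1 and Rhd, had 2.75% and 2.46%, close to the T cell states. Per UMI of nuclear-encoded respiratory subunits, however, cluster 12 was not low. It had 1.44 UMIs of the 10 genes in WT and 1.18 in KO. Cluster 1 had 1.44 and 1.21, cluster 5 had 0.951 and 1.04, and cluster 13 had 0.880 and 0.867. Red cells lose their mitochondria as they mature and neutrophils are known to hold few. Whether this bears on the shares was not tested. In the order of levels, neighbouring clusters had overlapping quartiles over barcodes almost throughout. The exceptions were the steps from cluster 4 to 14 and from cluster 6 to 13 in WT, and the step from cluster 8 to 13 in KO.

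**Figure D1:**
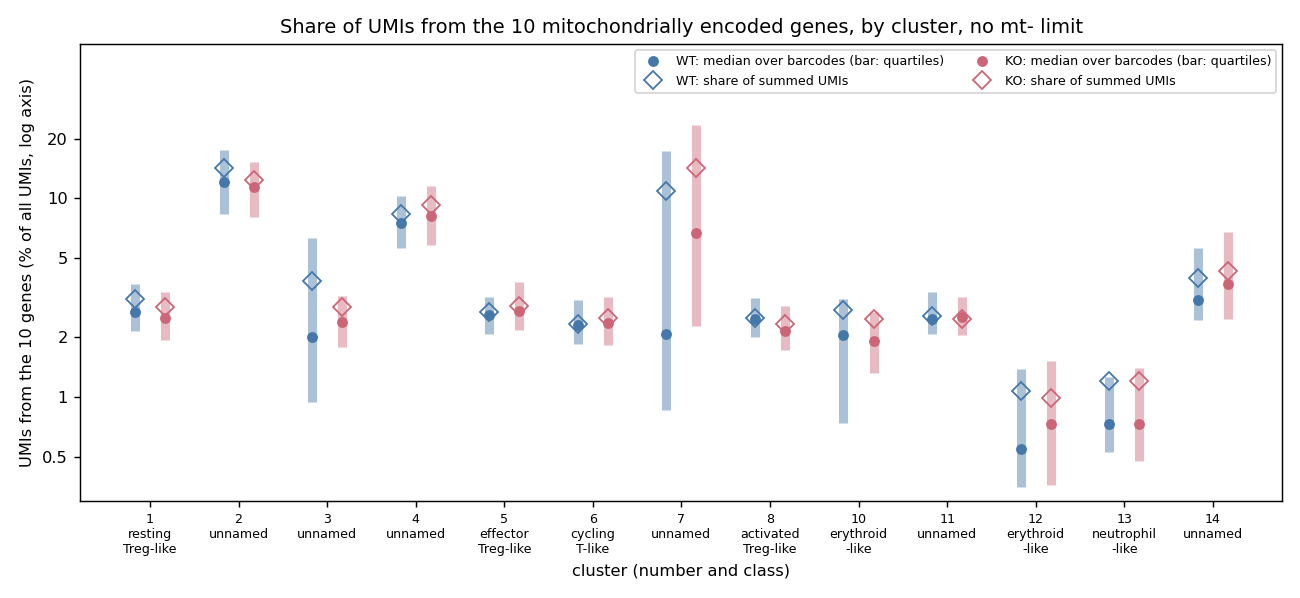
Share of UMIs from the 10 genes (% of all UMIs, log axis) for each of the 13 clusters with at least 50 barcodes in both libraries; points are medians over barcodes, bars the quartiles and diamonds the share of summed UMIs, WT in blue and KO in red. Clusters 2 and 4 stand above the named T cell states in median and summed share, cluster 7 does so in summed share but not in its WT median (2.06%), clusters 12 and 13 lie below them, and the WT and KO quartiles overlap in each cluster.

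Within clusters the direction of the genotype difference varied, and in the 4 named T cell states it was smaller than in the summed libraries. The ratio of KO to WT was 0.918 (0.914 to 0.921) in the resting, 0.927 (0.921 to 0.934) in the activated, 1.07 (1.05 to 1.08) in the effector and 1.07 (1.07 to 1.08) in the cycling cluster. As an equal mean over ranges of depth, however, all 4 lay below 1, at 0.848, 0.837, 0.9994 and 0.764, so that the directions of the effector and cycling clusters turned. Summed over barcodes, the ratio was 0.876 in cluster 2 and 1.11 in cluster 4. Of the 13 clusters with at least 50 barcodes in both libraries, the interval lay below 1 in 7, above 1 in 5 and covered 1 in the neutrophil-like cluster. Under the 5% limit the named T cell states kept their directions (0.941, 0.911, 1.03 and 1.02), but the ratio crossed 1 in cluster 3 (1.13), cluster 4 (0.981, 0.955 to 1.01), cluster 11 (1.05 after 0.973) and cluster 14 (0.997, 0.958 to 1.04). The libraries also differed in how many barcodes they placed in the high clusters: clusters 2 and 4 together held 37.5% of WT barcodes and 16.7% of KO barcodes, and 75.9% and 62.7% of all barcodes over the limit. When the KO clusters were weighted by their part of the WT UMIs, the ratio over all barcodes moved from 0.832 to 0.993. Without clusters 2 and 4 it was 0.949 (0.947 to 0.952). Both of these were chosen after the data had been seen, as was the equal-weight mean over the 13 clusters, which gave 1.02. The planned equal mean over depth ranges moved the other way, to 0.675. How far the makeup of the libraries accounts for the summed ratio was not tested.

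Some of the clusters were held mostly by 1 library. Cluster 5 had 2459 WT and 110 KO barcodes, and in the KO barcodes the 7 natural killer cell markers summed to 889 CPM against 53.6 in WT, all 7 higher. Cluster 3 had 241 WT and 5050 KO barcodes, cluster 9 had 13 and 821, and cluster 7 had 1536 and 318. All 3 were shallow and led by haemoglobin or granule genes, with haemoglobin at 1.09% of nuclear-encoded UMIs in KO cluster 3 and 3.06% in KO cluster 9 against 0.106% in KO cluster 1. Their ratios (0.745 for cluster 3, 0.625 for cluster 9 and 1.30 for cluster 7) compare few barcodes on 1 side, and within them library and genotype cannot be told apart. Under the 5% limit cluster 9 turned to 1.06 (0.945 to 1.19, 11 WT barcodes). Cluster 7 rose to 2.12 (2.04 to 2.21) with 152 KO and 843 WT barcodes.

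Depth moved with the level. In barcodes with 1000 to 2000 UMIs the 10 genes supplied 11.8% of UMIs in WT and 5.70% in KO, a ratio of 0.484, and 86.0% of those WT barcodes but 29.5% of the KO barcodes belonged to clusters 2 and 4. From 8000 to 16000 UMIs the shares were 2.49% and 2.40%, and over 16000 UMIs they were 2.10% and 2.11%, a ratio of 1.00 (0.997 to 1.01). In the resting Treg-like cluster the shares were 5.48% and 4.05% from 1000 to 2000 UMIs, and 2.90% and 2.68% from 4000 to 8000 UMIs. The summed level was thus nearly equal over 16000 UMIs, while from 8000 to 16000 UMIs the ratio was 0.9632 (0.9588 to 0.9675). Only 2 WT and 18 KO barcodes of cluster 1 lay over 16000 UMIs, against 1335 and 2039 from 4000 to 8000 UMIs. The depth ranges therefore also differ in their mix of cell states.

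**Figure D2:**
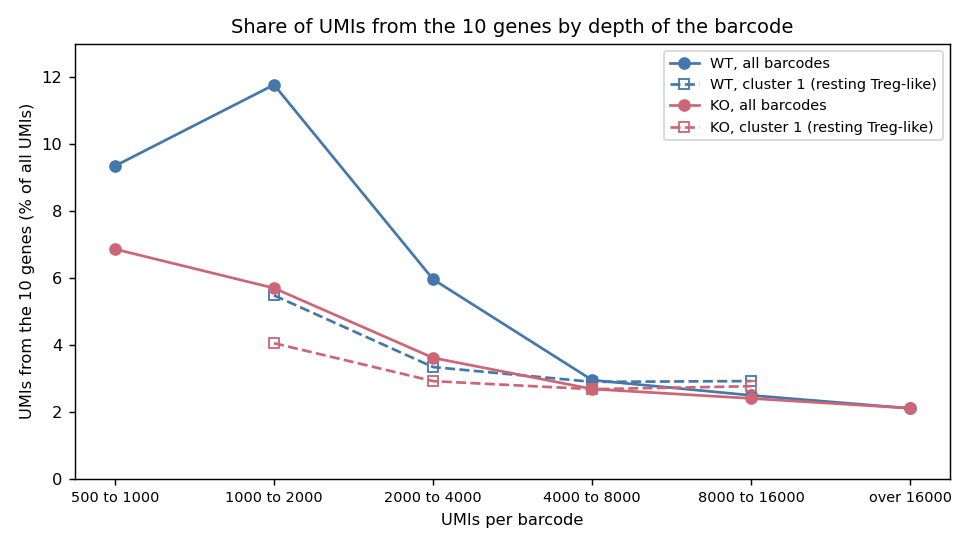
Share of UMIs from the 10 genes (%) by range of UMIs per barcode, for all barcodes (filled circles) and for cluster 1 (open squares, ranges with at least 50 barcodes), WT in blue and KO in red. The WT curve peaks at 11.8% from 1000 to 2000 UMIs, where KO has 5.70%, and the curves meet over 16000 UMIs.

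The individual genes did not share 1 ratio. Over all barcodes the complex I members stood at 2796 CPM in WT and 2725 in KO for mt-Nd1, 2205 and 1984 for mt-Nd2 (ratio 0.900), 1933 and 1862 for mt-Nd4 (0.963) and 655 and 391 for mt-Nd5 (0.598, 0.588 to 0.607). These 4 subunits lie in the proton-pumping membrane arm. The complex III member mt-Cytb, which carries both haem b groups, had 4313 and 3915 CPM (0.908). The complex IV members, its catalytic core, had 6812 and 5004 for mt-Co1 (0.735), 5502 and 4548 for mt-Co2 (0.827) and 7355 and 6066 for mt-Co3 (0.825). In complex V, mt-Atp6, which forms the proton path, had 7531 and 6087 CPM (0.808) and mt-Atp8 247 and 136 (0.552). Every member was thus lower in KO before any limit. Under the limit 6 members had intervals below 1 and 4 above: mt-Nd1 (1.14), mt-Nd4 (1.11), mt-Cytb (1.075) and mt-Nd2 (1.05). The same count over all genes was not made for all barcodes under the limit. In the resting Treg-like cluster under the limit, over nuclear-encoded UMIs, 3 of the 10 members and 3392 of 8146 genes had a ratio above 1.

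In all T-lineage clusters together, 2 of the 10 members were lower in KO by more than 1.5-fold, where 10.7% of the 10608 genes with at least 200 UMIs were, and none was higher, where 3.74% of genes were. These 2 were mt-Nd5, which fell from 685 CPM in WT to 404 in KO (ratio 0.590, 0.580 to 0.599), and mt-Atp8, from 258 to 140.2 CPM (0.543, 0.529 to 0.558). In the resting Treg-like cluster the same pair passed 1.5-fold, where 7.88% of genes did, and 7 members had intervals below 1, while those of mt-Cytb and mt-Nd1 lay above 1, at log2 ratios of 0.05 and 0.03. Of 8363 genes tested in this cluster, 3407 had a ratio above 1. No member passed 1.5-fold upward there, where 1.91% of genes did. Under the 5% limit the same cluster had 2 members past 1.5-fold lower (background 7.14%) and none higher (1.94%). In the effector cluster 1 member passed downward, mt-Atp8 (background 10.1%), and none upward (6.15%). In the activated cluster 1 passed downward, mt-Nd5 (background 5.46%), and none upward (3.15%). In the cycling cluster none passed in either direction (background 5.88% lower, 6.14% higher), and in cluster 2 the pair passed again (background 6.71%) and none was higher (4.42%).

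**Figure D3:**
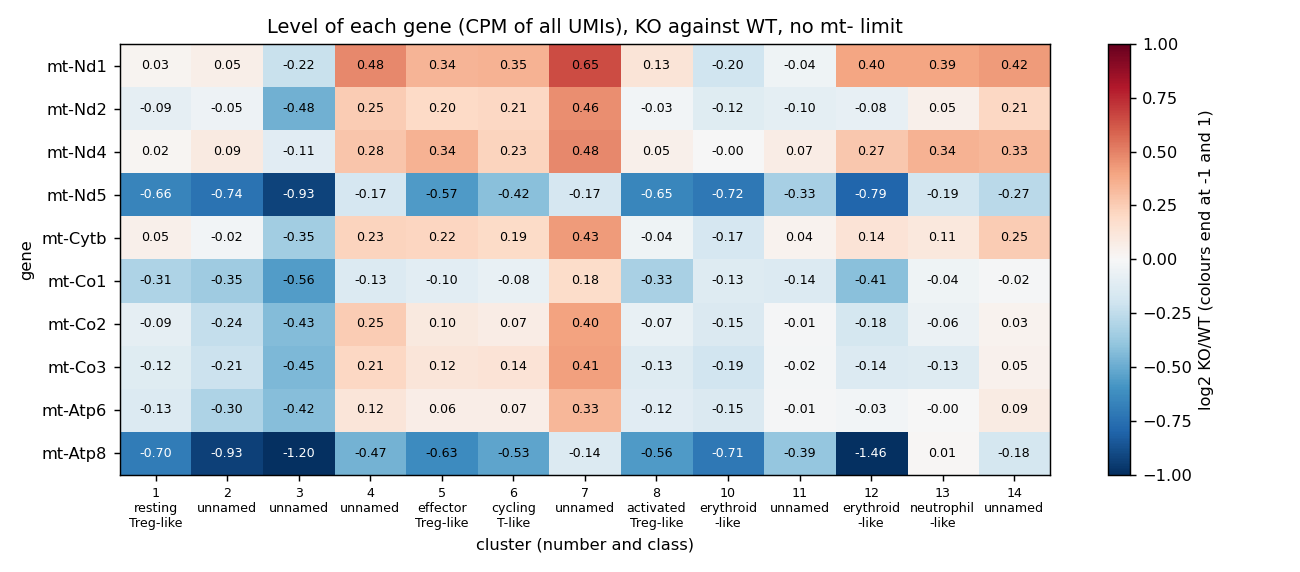
log2 of the KO to WT ratio of CPM for each gene (rows, ordered by complex) and cluster (columns); blue is lower in KO and red higher, and the colours end at -1 and 1. mt-Nd5 is below 0 in every column and mt-Atp8 in every column but the neutrophil-like cluster, also where most other rows are red. In the neutrophil-like cluster mt-Atp8 rests on 70 WT and 45 KO UMIs.

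The composition of the 10-gene pool shows this without the level. Each gene's UMIs were divided by the summed UMIs of the 10 genes of the same library, which removes any change that all genes share. mt-Nd5, a proton-pumping core subunit of complex I, made up 1.66% of the pool in WT and 1.20% in KO (ratio 0.719, 0.708 to 0.730) and was lower in KO in 13 of 13 clusters. mt-Atp8, a small membrane subunit of the ATP synthase, made up 0.628% and 0.417% (0.664, 0.647 to 0.681) and was lower in 12 of 13 clusters. In the neutrophil-like cluster its log2 ratio was 0.01, from only 70 WT and 45 KO UMIs. The interval of the ratio there was wide, at 0.673 to 1.48. mt-Co1, the catalytic subunit of complex IV, made up 17.3% and 15.3% (0.884, 0.880 to 0.888) and was lower in 12 of 13, all but the early erythroid-like cluster. Clusters of 1 library share that library, so these counts are not replicates.

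The opposite shift was seen in the other complex I members and in complex III. mt-Nd1 made up 7.11% of the pool in WT and 8.33% in KO (1.17, 1.16 to 1.18) and was higher in 11 of 13 clusters. mt-Nd4 made up 4.91% and 5.69% (1.16, 1.15 to 1.17) and was higher in 13 of 13. mt-Cytb, the only mitochondrially encoded subunit of complex III, made up 11.0% and 12.0% (1.09, 1.09 to 1.10) and was higher in 12 of 13, and mt-Nd2 made up 5.61% and 6.07% (1.08, 1.07 to 1.09) and was higher in 11 of 13. The 3 most abundant members by length stayed near their WT part of the pool: mt-Atp6 at 0.972, mt-Co3 at 0.992 and mt-Co2 at 0.994. Complex I members thus moved apart, mt-Nd5 down and mt-Nd1, mt-Nd2 and mt-Nd4 up, and so did the complex V pair, of which mt-Atp8 fell while mt-Atp6 hardly moved.

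The composition shift was also seen under the limit and, for mt-Nd5, mt-Atp8 and mt-Nd4, outside the T lineage. Under the 5% limit the composition ratio was 0.708 for mt-Nd5, 0.672 for mt-Atp8, 0.870 for mt-Co1, 1.18 for mt-Nd1 and 1.15 for mt-Nd4. In the clusters of other lineages it was 0.778 (0.725 to 0.835) for mt-Nd5, 0.751 (0.670 to 0.842) for mt-Atp8, 0.978 (0.959 to 0.997) for mt-Co1 and 1.12 (1.08 to 1.16) for mt-Nd4, whereas mt-Nd1 was at 1.02 (0.986 to 1.05). These clusters also held T cell RNA. Foxp3 stood there at 6.54 CPM in WT and 9.50 in KO, and Cd3e at 65.3 and 89.8, against 414 and 397 for Cd3e in T-lineage clusters. Zfp335 in these clusters was itself at 6.89 CPM in WT and 3.23 in KO (0.469, 0.249 to 0.846). In barcodes with up to 1% mitochondrial UMIs the ratio of mt-Nd5 was 0.844 (0.704 to 1.01), and in those with over 20% it was 0.694 (0.654 to 0.737), while mt-Nd1 was at 1.13 and 1.16. With 1 library per genotype, the deletion of Zfp335 and any other difference between the libraries or the mice cannot be told apart.

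The genes were also grouped by what follows them on the chromosome, a feature noticed after the values had been seen. Of the 13 genes, 7 are followed on the same strand by a tRNA gene within 3 bases: mt-Nd1 by mt-Ti, mt-Nd2 by mt-Tw, mt-Co2 by mt-Tk, mt-Co3 by mt-Tg, mt-Nd3 by mt-Tr, mt-Nd4 by mt-Th and mt-Cytb by mt-Tt. Their log2 composition ratios over all barcodes ran from -0.01 to 0.23, with a median of 0.11. The other 6 genes (mt-Co1, mt-Atp8, mt-Atp6, mt-Nd4l, mt-Nd5 and mt-Nd6) ran from -0.79 to -0.04, with a median of -0.42. These ranges do not overlap, although mt-Co2 and mt-Co3, both followed by a tRNA gene, also lost a little share, with intervals below 1. In the resting Treg-like cluster they were 0.01 to 0.17 and -0.82 to -0.01, but under the 5% limit they were -0.02 to 0.24 and -0.79 to -0.01 and overlapped, since mt-Atp6 then stood slightly above mt-Co3. mt-Atp6, which runs into mt-Co3, moved least of the 6. mt-Nd6, encoded on the opposite strand, was lowest with 55.6 CPM in WT and 26.7 in KO. mt-Nd6 and mt-Nd5 overlap antisense to each other. This is a description of 13 genes, and what it stems from was not tested.

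**Figure D4:**
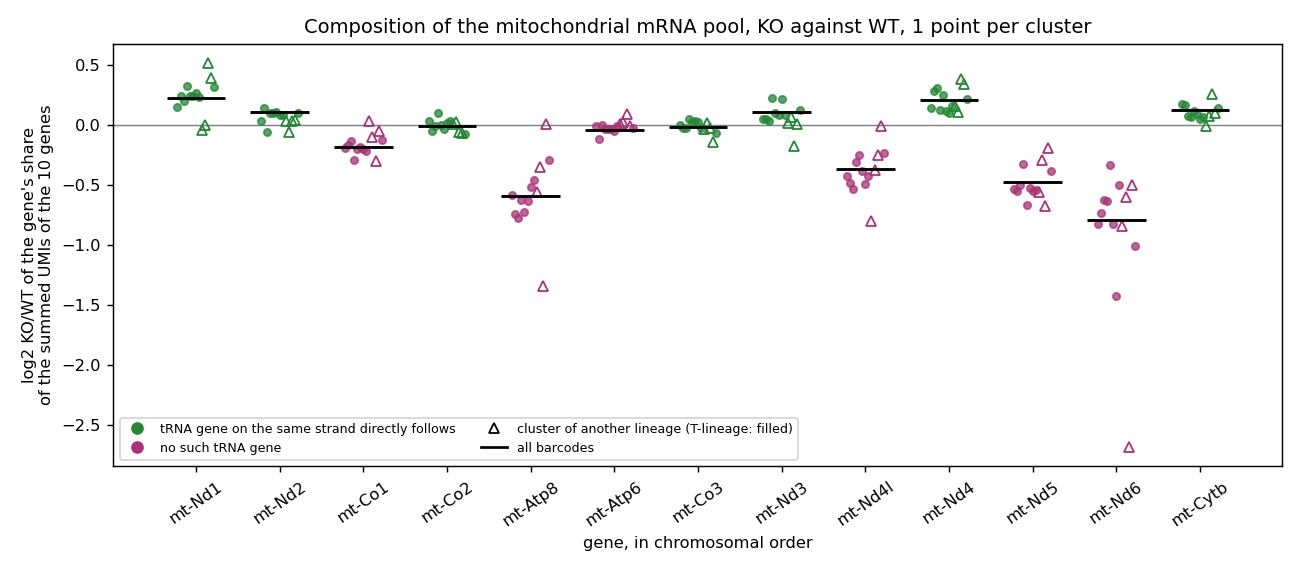
log2 of the KO to WT ratio of each gene's share of the summed UMIs of the 10 genes, for all 13 mitochondrially encoded genes in chromosomal order, with 1 point per cluster (open triangles are clusters of other lineages) and a black line for all barcodes; green genes are followed directly by a tRNA gene on their strand and purple genes are not. mt-Nd5, mt-Nd4l and mt-Nd6 lie below 0 in all 13 clusters and mt-Nd4 above 0 in all 13.

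Without the 5% limit, genes encoded in the nucleus for the same complexes did not follow the mitochondrial genes, and under it the ratio between the groups of genes covered 1 over T-lineage clusters but not in the resting Treg-like cluster. UMIs of the 10 genes per UMI of the nuclear-encoded subunits gave a KO to WT ratio of 0.835 (0.834 to 0.837) in T-lineage clusters without the limit and 1.00 (0.9988 to 1.004) with it. For this comparison CPM was taken over nuclear-encoded UMIs only, so that the mt- genes cannot push the others. In T-lineage clusters the median log2 ratio was -0.30 for the 10 members, 0.02 for 80 nuclear-encoded subunits of complexes I to V, and -0.09 for all 10608 genes with enough UMIs. Of the 80, none was higher and 2 were lower by more than 1.5-fold (background 3.74% and 10.7%). By complex the medians were 0.04 for complex I (37 genes), 0.00 for complex II (4), 0.09 for complex III (9), -0.11 for complex IV (12) and -0.01 for complex V (18). In the resting Treg-like cluster the members had a median of -0.11 and the 80 genes one of 0.16, with 74 of the 80 above a ratio of 1. Of all 8363 genes tested there, 3407 lay above 1, and their median was -0.08 over all 8363. UMIs of the 10 genes per UMI of these nuclear-encoded subunits were 1.44 in WT and 1.21 in KO there, a ratio of 0.840 (0.836 to 0.843), which was 0.865 (0.862 to 0.869) under the limit. In the cycling cluster the order was the other way round, with medians of 0.11 for the members and -0.08 for the 80 genes.

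The 2 nuclear-encoded genes past 1.5-fold were Ndufa4, a complex IV subunit, at 457 CPM in WT and 168 in KO (ratio 0.368, 0.359 to 0.377), and Atp5l, a subunit of the ATP synthase membrane part, at 594 and 389 CPM (0.655, 0.644 to 0.666). Both genes had been picked by the study from these libraries, so their values here are no independent evidence. The study also reports both as lowered in Tregs with induced Zfp335 deletion and in Tregs of heterozygous females. It further reports Zfp335 binding at the Ndufa4 promoter. Next lowest in complex IV was Cox7a2l, a supercomplex assembly factor, at 0.771, while Cox7a2 was at 1.08. In complex V Atp5mpl, a small membrane subunit, was at 1.38 and Atp5b, the catalytic beta subunit, at 1.17. In complex I the extremes were Ndufb7 at 0.849 and Ndufa6 at 1.28, in complex III Uqcrb at 0.901 and Uqcrc2, a core protein, at 1.26, and in complex II, which has no mitochondrially encoded subunit, Sdhd at 0.875 and Sdhc at 1.17.

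**Figure D5:**
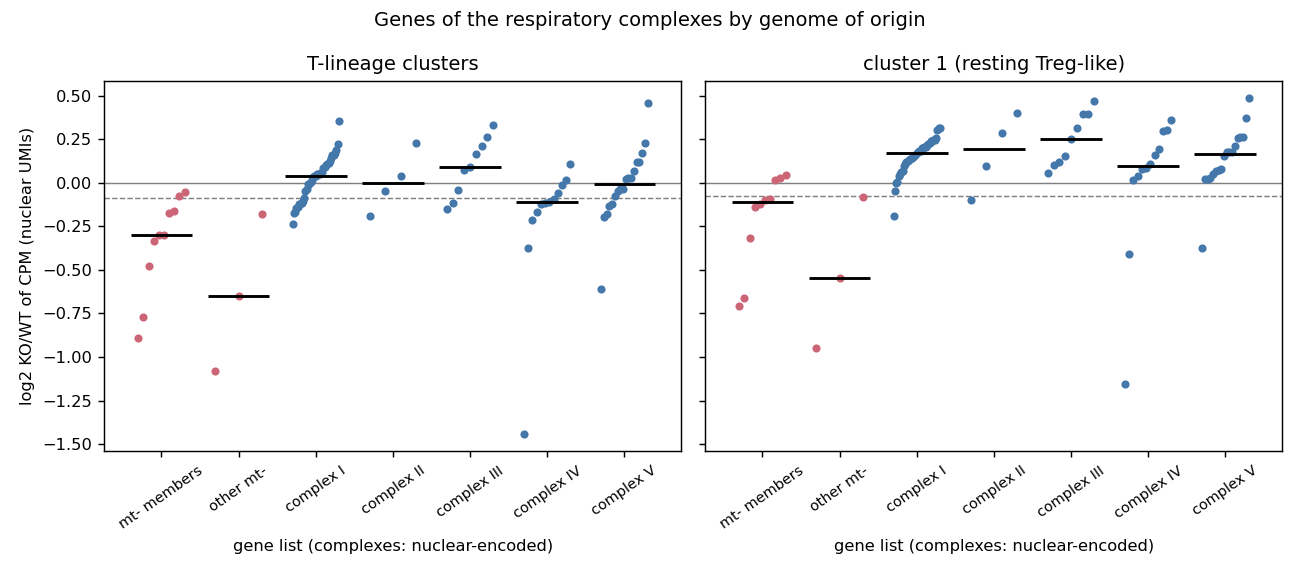
log2 of the KO to WT ratio of CPM over nuclear-encoded UMIs for the mitochondrially encoded genes (red) and the nuclear-encoded genes of each complex (blue), with 1 point per gene, black lines for list medians and a dashed line for the median of all genes; left all T-lineage clusters, right the resting Treg-like cluster. The medians of the 10 members are -0.30 and -0.11, those of complex I 0.04 and 0.17.

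The factors that copy, transcribe and process mitochondrial DNA and RNA went both ways, within 1.5-fold in T-lineage clusters. Tfam, which packages mitochondrial DNA and starts its transcription, was at 55.6 CPM in WT and 56.4 in KO (1.01, 0.964 to 1.06), and Polrmt, the mitochondrial RNA polymerase, at 6.84 and 6.76 (0.989, 0.857 to 1.14). Lrpprc, which protects mitochondrial mRNAs and supports their polyadenylation, was at 24.7 and 22.1 (0.896, 0.830 to 0.967) and, in the resting Treg-like cluster, at 24.8 and 17.6 (0.710, 0.610 to 0.828). In that cluster Fastkd1, which acts on mitochondrial RNA, was at 0.567 (0.434 to 0.741), the only 1 of 17 RNA genes tested there past 1.5-fold (background 7.88%). In T-lineage clusters none of the 15 measured genes of mitochondrial DNA transcription and replication passed 1.5-fold. The same held for all 19 genes of RNA processing and turnover, where 3.74% of all genes tested passed upward and 10.7% downward. The largest departures were Tefm, a transcription elongation factor, at 1.47 and Mterf1a, a termination factor family member, at 0.702, and among the RNA genes Rexo2, a mitochondrial oligoribonuclease, at 1.37, Fastkd1 at 0.708 and Pnpt1, the mitochondrial polynucleotide phosphorylase, at 0.717. Among the nuclear regulators of mitochondrial biogenesis Gabpa, which activates respiratory genes, was lowest at 0.680 (0.619 to 0.746) and Myc highest at 1.35.

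Across 27 points, each 1 cluster in 1 library with at least 50 barcodes, the level of each of the 10 members followed their sum, which contains it, with a Pearson r of 0.947 to 0.999. mt-Atp8 had the lowest r over all points, and r rose to 0.992 within WT and 0.970 within KO. Of 6126 other genes, those most like the 10 genes were Smg5 (r of 0.886), a factor of nonsense-mediated decay, Foxj3, Prpf4b, a pre-mRNA splicing kinase, Klf10, Tcf12, Sbf1, Rptor and Rpap1, all between 0.838 and 0.886. Malat1 had an r of 0.682. The most opposite were 1810058I24Rik (-0.67), Adipor1 (-0.67), Rnf11, Gpx1, a glutathione peroxidase, and Mpp1 (-0.59). Over only the 19 T-lineage points r was -0.56 for 1810058I24Rik. It was weaker there for Adipor1 (-0.22), Rnf11 (-0.19), Gpx1 (-0.32) and Mpp1 (-0.20). The points share libraries and clusters and the shallow clusters 2, 4 and 7 hold the high end, so these values describe a pattern only.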

How the data were processed

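Each library was made from splenic YFP+ Tregs with 10x 3′ chemistry. Per the labels, the authors aligned and counted the reads with Cell Ranger 5.0.1 against mm10, and deposited raw UMI counts per gene and barcode with no normalization. All barcodes with at least 300 genes were used, with and without a limit of 5% mt- UMIs. The study also removed doublets, which are kept here except in an alternative without the 5% of WT and 8% of KO barcodes of highest Scrublet score. Groups were taken from the labels, and the 10 genes and all gene lists were chosen with earlier results of these data known.

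UMIs were summed per library and cluster. Shares have exact binomial intervals, CPM exact Poisson intervals and ratios exact conditional binomial intervals, all at 95% and for counting error only; a simulated check of the ratio step was run. Ratios across all genes, and the calls past 1.5-fold, used CPM over nuclear-encoded UMIs and genes with at least 200 UMIs. Leiden clusters (igraph 0.11.9, scanpy 1.11.5, resolution 0.5) used 2000 variable genes, 30 principal components and 20 neighbours, with 178 genes left out, all mt- genes and markers among them. The rule that turns markers into names was set after the data were seen. Genes to name were, in each nuclear list, the 2 with the lowest and the 2 with the highest ratio in T-lineage clusters, of which the outermost are given, Tfam, Polrmt and Lrpprc by name, and the 8 genes with the highest and 5 with the lowest r. Positions and sequences come from GENCODE M21 (GRCm38).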

Additional observations from a re-analysis of the deposited data

Results flagged for a closer look

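The KO to WT ratio of the summed share of the 10 genes lay on opposite sides of 1 in different clusters, and with 1 library per genotype the difference between clusters was not tested. It lay below 1 in cluster 1 (resting Treg-like, 0.9178), cluster 2 (0.8756), cluster 3 (0.7448), cluster 8 (activated Treg-like, 0.9274), cluster 10 (erythroid-like, 0.8955), cluster 11 (0.9729) and cluster 12 (erythroid-like, 0.9208). It lay above 1 in cluster 4 (1.113), cluster 5 (effector Treg-like, 1.067), cluster 6 (cycling T-like, 1.074), cluster 7 (1.3) and cluster 14 (heat-shock genes leading, 1.078). Clusters 3, 5 and 7 were held mostly by 1 library.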

How the results depend on the processing

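No paired analysis was possible because each genotype has 1 library, and for the same reason no library could be left out. Of 100 alternative values, 40 stayed within the spread used and 54 moved beyond it. Another 6 changed direction from a main value whose interval left out no difference. Where the main interval or quartiles covered no difference, a change of side was counted among the 40 or the 54. Examples are the neutrophil-like ratio (1.004 to 0.9686) and the median log2 ratio of the nuclear-encoded subunits (0.01594 to -0.0187). The ratio of 0.832 for the share of the 10 genes became 0.8256 over nuclear-encoded UMIs, 0.6364 as a mean of single barcodes, 0.8498 with at least 500 genes, 0.834 without the highest Scrublet scores and 0.6748 as an equal mean over depth ranges. Alternatives chosen after seeing the data gave 0.993 with the makeup of the WT library, 0.9494 without clusters 2 and 4 and 1.021, a changed direction, as an equal mean over 13 clusters, so that 8 of 9 alternatives stayed below 1. Under the 5% limit the ratio of 0.966 became 0.9699 without haemoglobin, S100a8, S100a9, Gm42418, AY036118 and Malat1 in the denominator, 0.9908 as a mean of barcodes, 0.9613 with at least 500 genes and 0.9497 with a limit of 10%, at which the difference in barcodes over the limit was -13.99 points.

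By class, the denominator without those genes gave 0.9059 for resting, 0.9362 for erythroid-like (0.7797 for clusters 10 and 12 pooled in the main setting) and 0.9686 for neutrophil-like. The mean of barcodes gave 1.084 for effector, 0.9091 for activated, 1.02 for cycling, 0.656 for erythroid-like and 0.9057 for neutrophil-like. Without the highest Scrublet scores the values were 0.925 (resting), 1.037 (effector), 0.9197 (activated), 1.058 (cycling), 0.8139 (erythroid-like) and 0.8335 (neutrophil-like). The equal mean over depth ranges gave 0.8481 (resting), 0.8367 (activated), 0.6883 (erythroid-like) and 0.7571 (neutrophil-like), and changed direction for effector (0.9994) and cycling (0.7635). At Leiden resolution 1.0 resting gave 0.984 and activated 0.9434. Clustering only barcodes within the limit gave 0.9253 (resting), 1.032 (effector), 1.029 (cycling), 0.838 (erythroid-like) and 1.038 (neutrophil-like), and at least 500 genes gave 0.7981 for erythroid-like. In clusters of other lineages the composition ratio changed direction for mt-Nd2 (0.9881), mt-Co2 (1.003) and mt-Atp6 (1.01), and 3 members instead of 6 had an interval below 1. The cause of these changes was not tested.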
